A study of Mus musculus with 6 samples.

Results

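The genes described here are 10 genes of the Notch pathway, the receptors Notch1 and Notch2, the ligands Jag1, Jag2, Dll1 and Dll3, and the target genes Hes1, Hes5, Hey1 and Heyl, followed through the forebrains of 6 mice at postnatal day 9. They were taken by name, through the GENCODE M21 annotation, from a deposited table of 35275 gene identifiers. All 10 were in the table and all 10 passed the filter on low counts. The conditional knockout group (cKO) held 3 C57BL/6 mice with both Parp1 alleles floxed (Parp1fl/fl) and the transgene Pdgfra-CreER, a recombinase that tamoxifen activates in cells expressing Pdgfra, mainly oligodendrocyte precursors and some fibroblast-like cells. The control group held 3 littermates with the same floxed alleles and no recombinase. All 6 mice, controls included, were given tamoxifen by intraperitoneal injection on postnatal days 1 to 3, so both groups share the floxed gene and the drug. By design Parp1, the main enzyme of poly(ADP-ribose) synthesis, was deleted only where the recombinase acted, and RNA came from the whole forebrain. In such bulk RNA, fewer cells of a type and less RNA per cell cannot be told apart. The comparison asked whether expression of the pathway differed when Parp1 was deleted in the oligodendrocyte lineage.

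Notch signalling passes between touching cells. A ligand of the Delta-like or Jagged family on one cell binds a Notch receptor on its neighbour, the receptor is cut by an ADAM protease and then by gamma-secretase, and its intracellular part enters the nucleus, where it joins the DNA-binding protein RBPJ and switches on genes of the Hes and Hey families, which encode repressors. In the developing brain the pathway is known for keeping progenitors and glial precursors from differentiating, and Notch1 activated by Jag1 is known to hold back oligodendrocyte maturation. Notch receptors also act in blood vessels, in astrocytes and in neurons.

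The promoters of Hes5, Nrarp and Dll1 are shown because Hes5 and Dll1 were the members with the smallest p in the comparison and because Nrarp, which encodes a feedback inhibitor of Notch and is itself a Notch target, ranked the 6 mice in the same order as Hes5. Each run is the 250 bases before the start site, 5′ to 3′ on the gene's strand, from RefSeq on GRCm38.p6, the build of mm10. Capitals mark matches on either strand to GTGGGAA, the core of an RBPJ site.
Hes5 (chr4:154960673-154960922, plus strand): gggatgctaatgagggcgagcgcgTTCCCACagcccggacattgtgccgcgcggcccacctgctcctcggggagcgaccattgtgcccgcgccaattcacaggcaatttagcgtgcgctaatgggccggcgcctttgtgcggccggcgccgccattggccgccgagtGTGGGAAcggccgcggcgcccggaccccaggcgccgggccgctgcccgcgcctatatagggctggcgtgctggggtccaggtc
Nrarp (chr2:25180508-25180757, plus strand): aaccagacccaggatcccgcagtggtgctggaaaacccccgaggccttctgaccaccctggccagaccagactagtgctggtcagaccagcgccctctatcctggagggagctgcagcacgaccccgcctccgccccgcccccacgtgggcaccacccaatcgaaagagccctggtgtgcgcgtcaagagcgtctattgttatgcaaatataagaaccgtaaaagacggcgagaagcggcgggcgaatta
Dll1 (chr17:15376933-15377182, minus strand): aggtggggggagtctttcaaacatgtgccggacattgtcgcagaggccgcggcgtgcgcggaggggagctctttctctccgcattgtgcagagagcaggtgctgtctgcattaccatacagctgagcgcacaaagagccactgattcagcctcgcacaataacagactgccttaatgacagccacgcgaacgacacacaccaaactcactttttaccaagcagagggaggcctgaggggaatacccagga
The Hes5 window held 2 RBPJ cores, one at 83 to 77 bases before the start on the gene's strand and one at 226 to 220 bases on the opposite strand. Of 32851 windows of this length, 5.42% held at least 1 such core and 0.161% held at least 2. The Nrarp window held none. The Dll1 window shown, that of the farther upstream of its 2 listed starts, held none, nor did the window of its other start. The windows of Notch1, Notch2, Jag1, Jag2 and Dll3 also held no match. Promoters of Hes1, Hey1 and Heyl are named only. A match to these letters is a description of the window and not a measured binding site.

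Total counts per library ran from 17262042 to 29310193. Control replicate 3 was set apart by the first principal component of all genes, and it had the lowest summed level of 8 striatal markers (224 CPM against 694 to 902) and the highest of 8 thalamic markers (697 CPM against 312 to 359). Control replicate 1 was the only library with more than 1 count of the Y-linked gene Ddx3y, so by expression the sexes were not balanced between the groups. The controls are littermates, and no label gives the litter of a mouse. Parp1 itself was at 80.8, 79.7 and 79.1 CPM in cKO replicates 1 to 3. In control replicates 1 to 3 it was at 90.8, 97.3 and 85.6 CPM. Its log2 fold change was -0.19 (edgeR unadjusted p = 0.011, adjusted p = 0.572). The groups did not overlap, with cKO lower, as for 5.86% of all tested genes. The Parp1 count covers all exons and all cells, so it does not measure the deletion. CPM here are counts scaled to the library total and by TMM, a normalisation that sets most genes to no change.

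Per length, Jag2 and Hey1 were the most abundant of the 10 genes and Dll3 the least. FPKM values, the authors' counts scaled to library total and to 1 length per gene, allow genes to be compared as far as those lengths hold. They differ from the exonic lengths in GENCODE M21, at 9488 against 14232 bp for Notch1 and 10506 against 10782 bp for Notch2. For Jag2 they were 4054 against 6965 bp and for Jag1 5612 against 5827 bp. With the exonic lengths the ratios of Jag2 to Jag1 and of Notch1 to Notch2 given below would be smaller. The order was not repeated with those lengths. In controls Jag2 was at 17.8 ± 0.224 FPKM (SD, n = 3 mice) and Hey1 at 16.9 ± 2.002 FPKM, and their ranges over the 3 mice overlapped. Next came Hes1 at 6.50 ± 0.842 FPKM, Hes5 at 6.31 ± 2.08 FPKM and Notch1 at 4.91 ± 0.479 FPKM, where each overlapped its neighbour in the order. Dll1 at 3.21 ± 0.165 FPKM and Notch2 at 3.15 ± 0.272 FPKM overlapped each other, lay under Notch1 and lay above the last 3 genes. Those were Jag1 at 2.35 ± 0.186 FPKM, Heyl at 2.31 ± 0.554 FPKM and Dll3 at 1.96 ± 0.0106 FPKM, where Jag1 overlapped Heyl and Heyl overlapped Dll3. The gap after Hey1 and those after Notch1 and after Notch2 were larger than the spread of the control mice. Of the Jagged ligands, Jag2 was 7.25 to 9.02 times as high as Jag1 per length in every one of the 6 libraries, and Notch1 was 1.35 to 1.72 times as high as Notch2. In cKO the order was the same except that Hes5, at 3.24 ± 1.69 FPKM, came after Notch1 (4.40 ± 0.403 FPKM), and Notch2 (3.18 ± 0.236 FPKM) came before Dll1 (2.56 ± 0.321 FPKM) with no overlap between those 2.

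**Figure D1:**
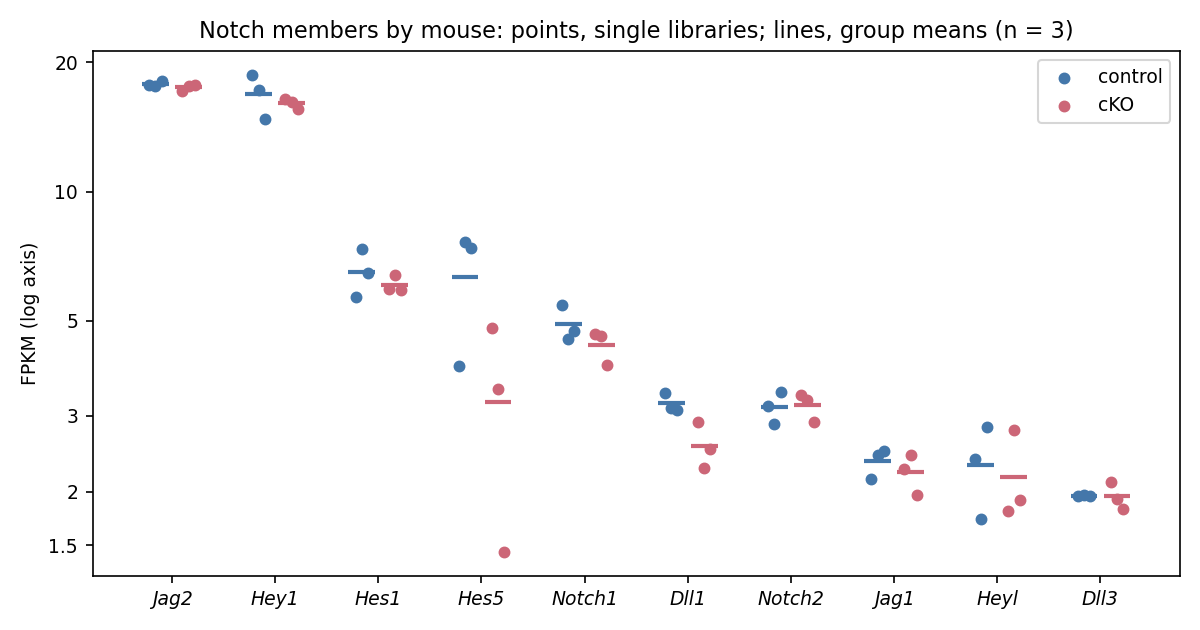
FPKM of the 10 Notch genes (log axis) in each mouse, controls in blue and cKO in red, ordered by the control mean. Lines are group means of n = 3 mice. Jag2 and Hey1 lie above 14 FPKM in every mouse, and Hes5 spreads widest, from 1.45 to 7.62 FPKM.

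None of the 10 members was called between cKO and control, where a call is an adjusted p under 0.05 in edgeR's quasi-likelihood test over 16938 genes. Over all tested genes 0.266% were called, and 0.207% were called lower. DESeq2 and limma on the FPKM values also called 0 of the 10. In the edgeR fit 1 member, Dll1, had an unadjusted p under 0.05, against 6.27% of all tested genes. It was also the 1 member whose groups did not overlap, against 11.9% of all tested genes, and 5.86% in its direction. Of the 10 log2 fold changes 9 were below 0 and their median was -0.09, beside a median of -0.00 over all tested genes. The 95% confidence interval lay within 1.5-fold in either direction for 8 of the 10 and within 2-fold for 9, Hes5 being the exception. For those 8 genes a forebrain-wide change of 1.5-fold or more lay outside the interval.

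**Figure D2:**
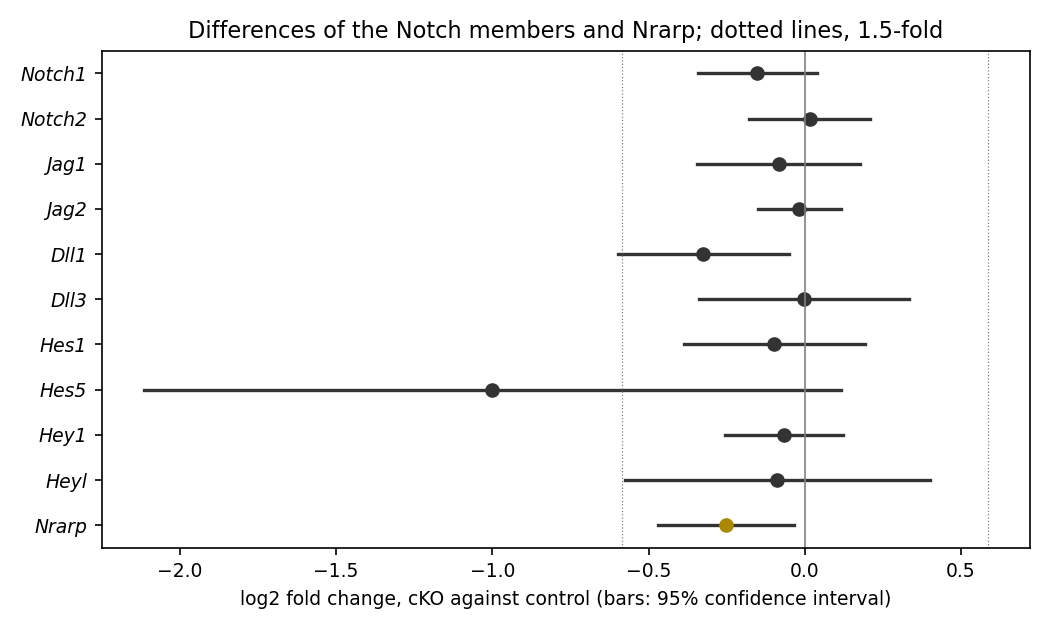
Log2 fold change of cKO against control with its 95% confidence interval from the edgeR fit, for the 10 members (black) and Nrarp (yellow), n = 3 mice each. Dotted lines mark 1.5-fold. The interval of Jag2 is the narrowest, from -0.15 to 0.11, and that of Hes5 the widest, from -2.12 to 0.11.

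Of the receptors, neither was called. Notch1 (ENSMUSG00000026923, chromosome 2, 26457903 to 26516663 in mm10) is the receptor of neural progenitors and of oligodendrocyte precursors. It was at 43.5, 43.9 and 38.1 CPM in cKO replicates 1 to 3 and at 51.5, 42.6 and 45.4 CPM in control replicates 1 to 3. Control replicate 1 was the highest and cKO replicate 3 the lowest, and the groups overlapped. On the log2 scale it differed by -0.15, with a 95% confidence interval of -0.34 to 0.04 (edgeR adjusted p = 0.839). Exons of Notch1 overlap 2 genes on the opposite strand over 1482 bp, and those genes had at most 26 counts in a library. Notch2 (chromosome 3, 98013527 to 98150361), its close relative, was at 34.7, 34.5 and 31.2 CPM in cKO and 33.2, 29.9 and 36.1 CPM in the controls. Its lowest and its highest value were both those of controls, and its log2 fold change was 0.02 (interval -0.18 to 0.21). Gm42820, which had no row in the deposited table, shares 541 exonic bp with Notch2 on the same strand.

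The other 2 receptors, which the list of pathway genes adds, did not pass either. Notch3, a receptor of mural cells of blood vessels, was at 34.7, 30.5 and 23.2 CPM in cKO and 29.3, 29.1 and 31.8 CPM in the controls (log2 fold change -0.03, edgeR adjusted p = 0.9749). The spread was wider among the cKO mice, which held both the highest and the lowest value. The summed level of 10 mural markers, Rgs5 and Pdgfrb among them, was likewise highest in cKO replicate 1 and low in cKO replicate 3 (259, 248 and 183 CPM in cKO replicates 1 to 3, 180 to 209 CPM in the controls). Of these markers 9 had log2 fold changes above 0 and 1 below, with a median of 0.26. EdgeR called 0 of the 10, against 0.266% of all tested genes. An unadjusted edgeR p under 0.05 was found for 3, against 6.27% of all tested genes. For 2 the groups did not overlap, against 11.9%. The part of the mural cells in the Notch3 values was not tested. Notch4, a receptor of endothelium, was at 13.6 ± 1.93 CPM in the cKO mice and 12.7 ± 1.56 CPM in the controls (log2 fold change 0.10, adjusted p = 0.931).

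Among the ligands, Dll1 was the member with the smallest p and was lower in each cKO mouse than in each control. Dll1 (ENSMUSG00000014773, chromosome 17, 15367354 to 15376872) encodes Delta-like 1, a ligand of neuronal and glial precursors. It was at 10.2, 8.16 and 9.15 CPM in cKO replicates 1 to 3, against 12.1, 11.1 and 11.2 CPM in control replicates 1 to 3. The control mice lay close together, and even the highest cKO mouse lay under the lowest of them. The log2 fold change was -0.32, with an interval from -0.60 to -0.05 and an unadjusted p of 0.0237, which over all genes gave an edgeR adjusted p of 0.718. An exact two-sided permutation test over the mice gave p = 0.1, the smallest that 3 against 3 can give. The counts behind it were 202 to 263 per library. Exons of Dll1 overlap 867 bp of A930024N18Rik on the opposite strand, which had 70 to 106 counts per library. The strand setting of the counting is not given in the sources used here, so reads of the overlap cannot be assigned.

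Dll3, a Delta-like protein known for blocking Notch within its own cell, was nearly the same in both groups. Its level was 5.43, 5.05 and 4.87 CPM in cKO and 5.08, 5.11 and 5.16 CPM in the controls. The control values lay inside the cKO range, and the log2 fold change was -0.00 with an interval from -0.34 to 0.33. Jag1, the ligand linked to delayed oligodendrocyte maturation, was at 12.4, 13.7 and 11.2 CPM in cKO and 11.95, 13.5 and 14.1 CPM in the controls (log2 fold change -0.08, interval -0.34 to 0.18). Jag2, the most abundant ligand, was at 68.4, 71.9 and 73.2 CPM in cKO and 71.4, 71.0 and 73.9 CPM in the controls. Its interval, -0.15 to 0.11, was the narrowest of the members, and its groups overlapped. Dll4, a ligand of endothelial tip cells outside the 10 members, was at 6.71, 8.24 and 7.17 CPM in cKO and 6.47, 6.67 and 6.43 CPM in the controls. Its groups did not overlap, with cKO above, and it was not called (log2 fold change 0.18, interval -0.13 to 0.49, edgeR adjusted p = 0.880). All 10 endothelial markers had log2 fold changes above 0, with a median of 0.10, and 0 were called or had an unadjusted p under 0.05. Their summed level was 259 to 324 CPM in cKO and 261 to 274 CPM in the controls, and their part in the Dll4 values was not tested.

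Of the target genes, Hes5 had the largest difference and also the largest spread between mice. Hes5 (ENSMUSG00000048001, chromosome 4, 154960923 to 154962371) encodes a repressor that Notch switches on in neural progenitors and glial precursors, and its 2 RBPJ cores are shown above. It was at 6.02, 4.44 and 1.88 CPM in cKO replicates 1 to 3 and at 4.97, 9.62 and 9.49 CPM in control replicates 1 to 3. Control replicates 2 and 3 lay above all cKO mice, while control replicate 1 lay between cKO replicates 1 and 2, so the groups overlapped. The mean was 4.11 ± 2.09 CPM in the cKO mice and 8.02 ± 2.65 CPM in the controls (SD over n = 3 mice). The log2 fold change was -1.0 with an interval from -2.12 to 0.11, and it was not called (edgeR adjusted p = 0.831, unadjusted p = 0.0706, exact permutation p = 0.2). Without cKO replicate 3 it was -0.64 and without cKO replicate 1 it was -1.37. Control replicate 1, the low control, was also the library with Y-linked counts, and the part of sex in this value was not tested.

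The spread of Hes5 exceeded that of most genes of its level. Its SD of log2 CPM within groups was 0.71, above 99.3% of 3139 tested genes with a mean CPM within 2-fold of its own. Heyl was next among the members at 0.36 (above 94.6% of 3646 genes). Dll3 at 0.06 lay above 0.769% of 2992 such genes, and Jag2 at 0.04 above 8.78% of 4637. The counts of Hes5 were 122, 110 and 54 in cKO and 86, 209 and 208 in controls. The exact 95% Poisson interval of the 54, which covers counting error only, was 40.6 to 70.5. That of the 110 was 90.4 to 133. Dll3 had 110, 125 and 140 counts in cKO and 88, 111 and 113 in controls, so each of its values is less exact than its small spread. The antisense gene Gm20421, whose exons overlap 433 bp of Hes5, had 1 to 4 counts per library.

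The other Hes and Hey members were not called. Hes1, which like Hes5 encodes a repressor of differentiation genes but is also driven by other signals, was at 8.53, 9.45 and 8.80 CPM in cKO and 8.32, 10.7 and 9.58 CPM in the controls. The groups overlapped, with a log2 fold change of -0.10 and an interval from -0.39 to 0.19. The ratio of Hes5 to Hes1 per length was 0.813, 0.542 and 0.246 in cKO and 0.689, 1.03 and 1.14 in controls. Hey1 (chromosome 3, 8663359 to 8667256), a repressor of vascular and neural cells, was at 35.5, 35.8 and 35.0 CPM in cKO and 41.1, 37.6 and 32.8 CPM in the controls. The controls spread on both sides of the narrow cKO range (log2 fold change -0.07, interval -0.26 to 0.12). Heyl, known in mural cells, was at 8.04, 12.7 and 8.83 CPM in cKO and 10.7, 7.78 and 12.96 CPM in the controls, with an interval from -0.58 to 0.40. Both groups held mice near either end of that range. Hey2 and Hes7, the remaining targets in the list, had log2 fold changes of 0.09 and -0.61 (edgeR adjusted p = 0.960 and 0.835), Hes7 at no more than 2.14 CPM in any mouse. Summed over the 6 targets the level was 63.3, 69.3 and 59.4 CPM in cKO and 71.3, 70.9 and 71.3 CPM in the controls. Hey1 was the largest part of each sum, and the groups of each of the 6 targets alone overlapped.

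Nrarp followed Hes5 across the mice. Its level was 29.6, 27.5 and 23.2 CPM in cKO replicates 1 to 3 and 29.4, 33.6 and 32.4 CPM in control replicates 1 to 3. The 6 libraries stood in the same order for both genes, from control replicate 2 down through control replicate 3, cKO replicate 1, control replicate 1 and cKO replicate 2 to cKO replicate 3. Among 15231 genes with a mean of at least 1 CPM, Nrarp was the third most similar to Hes5, with a Pearson r of 0.99 on log2 CPM over the 6 libraries. Spearman's rho was 1, and r was 0.96 over the 4 libraries left without the 2 farthest from the median of Hes5. With deviations from the group means in place of levels, r was 0.99. These are descriptions of 6 libraries that share the group difference, and 42 of the 15231 genes had an r over 0.95 with Hes5. The other 4 of the 5 most similar were Pdlim1, a cytoskeletal adaptor (0.99), Fer, a tyrosine kinase (0.99), Gng4, a G protein gamma subunit (0.98), and Gstm7, a glutathione transferase of a family with similar copies (0.98).

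The difference of Nrarp was smaller than that of Hes5 and was not called. Its log2 fold change was -0.25, with an interval from -0.47 to -0.04 (unadjusted p = 0.0263, edgeR adjusted p = 0.719), and its groups overlapped. Exons of Gm38287 on the opposite strand cover 2051 of the 2582 exonic bp of Nrarp, so the counts of Nrarp are less certain. Gm38287 had no row in the deposited table, so its own counts cannot be given. For Dll1, the most similar genes were Xpnpep1, an aminopeptidase, Apex1, an endonuclease of base excision repair, Gins1, a replication factor, Tomm5, a part of the mitochondrial import pore, and Naxe, a metabolite repair enzyme (r of 0.99 for each over 6 libraries). Xpnpep1 differed by -0.09 on the log2 scale between the groups. Like Dll1, each of these genes had groups that did not overlap, with cKO lower, so the r values share the group difference. Of 15231 genes, 29 had an r over 0.95 with Dll1.

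**Figure D3:**
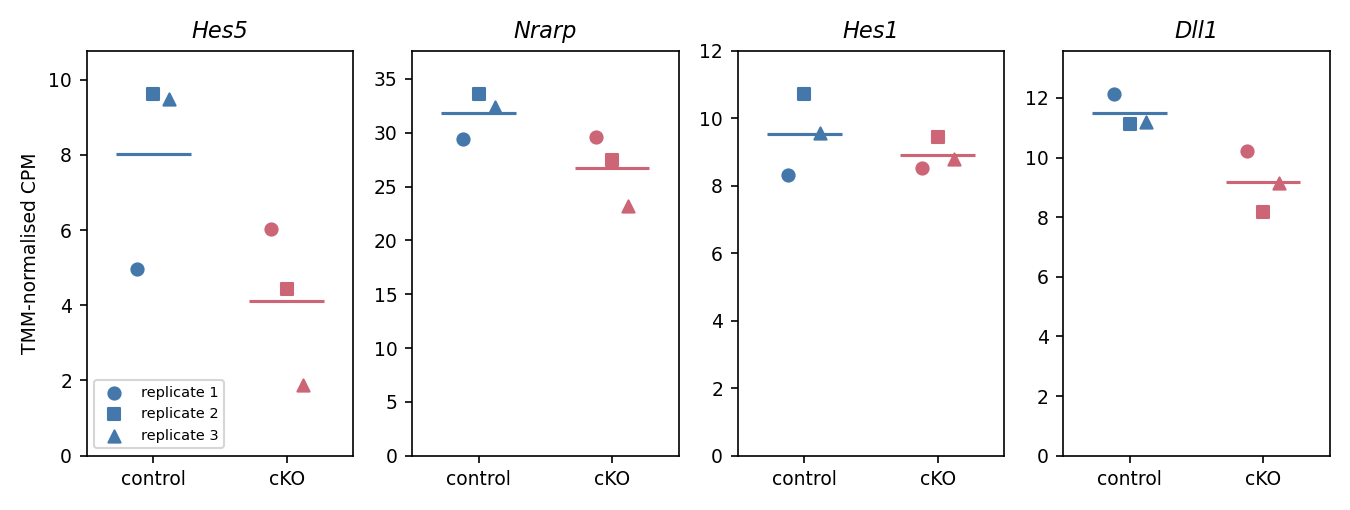
TMM-normalised CPM of Hes5, Nrarp, Hes1 and Dll1 in each mouse, with symbols for the replicate number and lines at the mean of n = 3 mice; each axis starts at 0. Hes5 and Nrarp are lowest in cKO replicate 3 and highest in control replicate 2, and the groups of Dll1 do not overlap.

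The rest of the pathway was followed through 71 genes in 10 lists by role, which include the members, and all 71 passed the filter. None of the 71 was called by edgeR, DESeq2 or limma on the FPKM values. At an unadjusted p under 0.05 there were 4 (5.63%, against 6.27% of all tested genes), and 5 had groups that did not overlap (7.04%, against 11.9%). The median log2 fold change was -0.00, and the intervals of 65 of the 71 lay within 1.5-fold. The 4 genes were Dll1, Nrarp, Dner and Aph1c. Dner, a neuronal Delta-like protein with EGF repeats, was at 321, 322 and 311 CPM in cKO and 346, 332 and 395 CPM in the controls (log2 fold change -0.17, edgeR adjusted p = 0.768). Control replicate 3, the library low in striatal and high in thalamic markers, was the highest. Aph1c, a gamma-secretase subunit with the close copy Aph1b, was at 8.24, 8.56 and 9.01 CPM in cKO and 5.72, 8.19 and 6.21 CPM in the controls (log2 fold change 0.36, adjusted p = 0.768). Aph1b was at -0.14, and reads shared by the copies make both uncertain.

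By role, the list medians lay between -0.09 and 0.06 on the log2 scale. The 6 targets had a median of -0.09 and the 5 canonical ligands one of -0.02. The median of the targets moved with single libraries, to -0.24 without cKO replicate 2 and -0.07 without cKO replicate 1, and the 4 receptors, at -0.01, ran from -0.09 without cKO replicate 1 to 0.09 without cKO replicate 3. The 8 non-canonical ligands had -0.03, among them Cntn1, an axonal contactin reported to act on oligodendrocyte Notch, at 523 ± 8.36 CPM in the cKO mice and 589 ± 78.2 CPM in the controls (log2 fold change -0.17, adjusted p = 0.832). The control mean rests on 679 CPM in control replicate 3, against 535 and 554 CPM in the others.

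Genes that process or transmit the signal were not called either. In the 4 genes of ligand endocytosis the median was 0.05, with Mib2, a ubiquitin ligase of the ligands, at 0.08 and Neurl1a, another such ligase, at 0.06. In the 5 genes of receptor glycosylation it was 0.03, with Lfng, the lunatic fringe sugar transferase, at -0.05, Rfng at 0.06 and Pofut1 at -0.05. In the 10 genes of receptor cleavage it was 0.03. In the 9 genes of the nuclear complex it was 0.00, with Rbpj at 32.1, 31.1 and 27.9 CPM in cKO and 33.5, 30.5 and 32.6 CPM in the controls (log2 fold change -0.09, interval -0.27 to 0.10). The coactivators Crebbp and Maml2 were at 0.12 and -0.19. The 11 RBPJ corepressors had a median of 0.01, with Tle1 at 0.14 and Ctbp1 at -0.10, and the 9 negative regulators one of 0.06, with Fbxw7, which marks the receptor fragment for degradation, at 0.14.

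**Figure D4:**
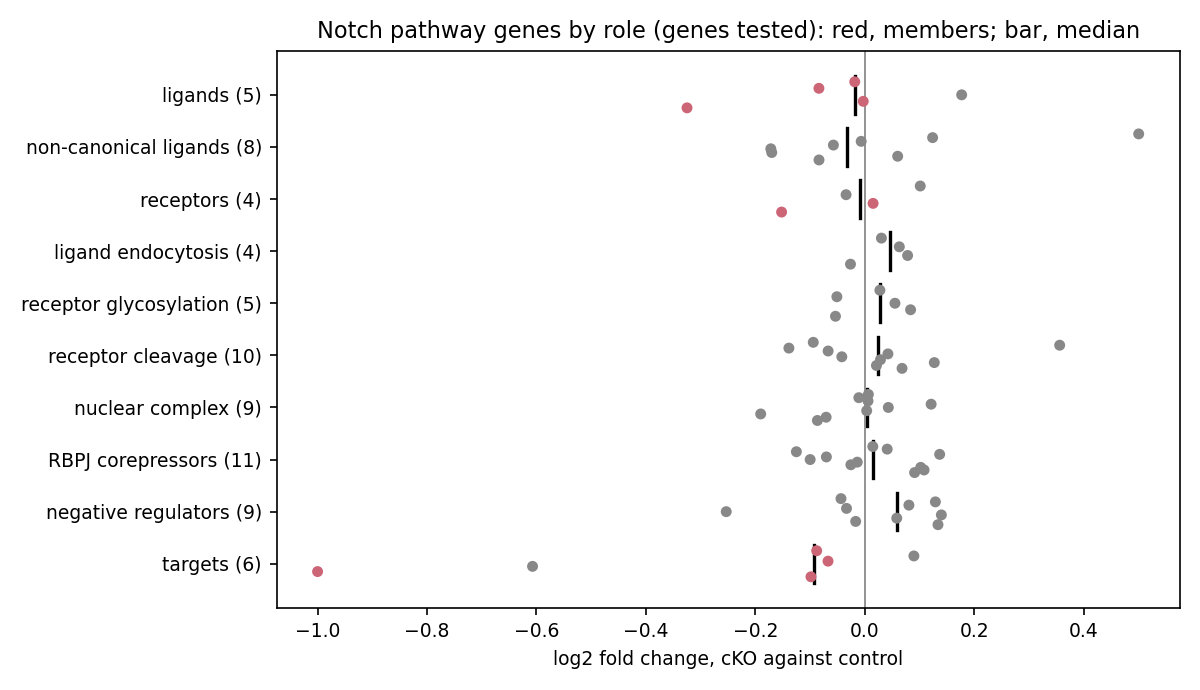
Log2 fold change of cKO against control for the 71 tested genes of the Notch pathway, by role, with the 10 members in red and the list median as a bar. The medians lie between -0.09 and 0.06, and Hes5 at -1.0 is the farthest from 0.

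Cell type markers gave the setting of these values, and those of neurons (5628 to 6243 CPM summed over 10 genes), astrocytes and oligodendroglia were present in every library, as the label forebrain implies. Of 11 tested markers of oligodendrocyte precursors 5 were called, all lower in cKO, where 0.207% of all tested genes were called lower. The 11 had a median log2 fold change of -0.61 and a summed level of 738 to 897 CPM in cKO against 1100 to 1150 CPM in the controls. Sox10, a factor of the whole lineage, was at 16.8 ± 0.301 CPM in the cKO mice and 44.7 ± 2.98 CPM in the controls (edgeR adjusted p = 3.06e-06), and Pdgfra at 119 ± 17.7 and 163 ± 14.9 CPM (adjusted p = 0.253). Markers of later stages of the lineage were also called. Of 10 markers of newly formed oligodendrocytes 5 were called lower (median -0.76, sums of 490 to 525 CPM in cKO and 787 to 927 CPM in the controls), and of 11 tested myelin markers 7 were called lower (median -1.22, sums of 274 to 314 CPM in cKO and 551 to 709 CPM in the controls). By mouse, the precursor markers summed to 853, 897 and 738 CPM in cKO replicates 1 to 3 and to 1116, 1100 and 1150 CPM in control replicates 1 to 3, the mice in which Hes5 was at 6.02, 4.44, 1.88, 4.97, 9.62 and 9.49 CPM. None of 12 astrocyte markers was called, with sums of 3990 to 4330 CPM in cKO and 3864 to 4174 CPM in the controls. None of 12 markers of neural progenitors and neuroblasts was called, at 917 to 965 CPM in cKO and 823 to 1014 CPM in the controls. All 10 microglial markers had log2 fold changes above 0 (median 0.47), and edgeR called 0. Of them 8 had groups that did not overlap, against 11.9% of all tested genes. An unadjusted edgeR p under 0.05 was found for 7 of these markers, against 6.27% of all tested genes. Their sums were 463 to 566 CPM in cKO and 301 to 450 CPM in the controls. Of the 12 listed precursor markers 11 were found in the deposited table. No listed marker found there was at 0 in all libraries. The part of any of these cell types in the Notch values was not tested.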

How the data were processed

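Poly-A RNA of 6 mouse forebrains (3 cKO, 3 control) was made into directional libraries and sequenced, as the labels' protocols state. The deposited counts are whole reads per Ensembl gene. The submitters' processing notes name CASAVA, STAR 2.5, HTSeq 0.6.1, DESeq and mm10, without roles. Annotation release and strand setting were not given in the sources used here. The deposited FPKM values equalled count divided by total and by 1 length per gene, which came out whole within 0.01 bp in 100% of 135389 values, so both tables hold the same measurement. Names came from GENCODE M21 for 34490 of 35275 identifiers, and the unnamed ones held 0.119% to 0.130% of a library's counts.

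Counts were filtered with filterByExpr (minimum count 10, minimum total 15), scaled by TMM and tested with edgeR 4.0.16 (quasi-likelihood, robust dispersion, two-sided, no block) in R 4.3.3. P-values were adjusted over 16938 genes by the Benjamini-Hochberg method and called under 0.05. Intervals at 95% came from the log2 fold change and the square root of F. Exact permutation tests over 20 splits of the mice were added. Correlations used log2 CPM with a prior count of 2. No label says that a replicate number marks a shared litter, and samples with the same number did not deviate together. With 3 pairs this check cannot decide whether such mice shared a litter. The edgeR p-values set the difference between the groups against the spread between these mice, which the fit estimates with help from all genes. The fits were tested on simulated data. Alternatives used DESeq2 1.42.0, limma 3.58.1 on log2(FPKM + 1) or log2(FPKM + 0.1), other scalings and filters, a replicate block, and each library left out.

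The members and lists were chosen with earlier results of these data known. Genes were named by rule: the members, Parp1, 9 further pathway genes, the 2 with the smallest p of each role list, the 5 most similar to Hes5 and to the member of smallest p, and 12 defining markers. Ddx3y and the antisense genes were named after their values were seen. Some items are not reported here: 1 role list of the original choice, with its genes, was left out of all counts.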

Additional observations from a re-analysis of the deposited data

How the results depend on the processing

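Across 15 alternatives, 0 of the members and 0 of the pathway genes were called in each. The 10 members kept the sign of their log2 fold change in 140 of 150 values. The exceptions lay between -0.054 and 0.097. Some were farther from 0 than in the fit reported, as Heyl without control replicate 3 (0.097 against -0.088). Dll3 was at 0.0044 with no filter. With each library left out in turn, Notch2 ran from -0.054 to 0.080, Jag2 from -0.043 to 0.0092, Dll3 from -0.045 to 0.028, Hey1 from -0.16 to 0.0099 and Heyl from -0.32 to 0.097, and the cause was not tested. Dll1 stayed below 0, from -0.40 to -0.25, and Hes5 from -1.37 to -0.64. Their lowest adjusted p over all alternatives was 0.545 for Dll1 and 0.649 for Hes5. Unadjusted p over the alternatives lay on both sides of 0.05 for 3 members. It ran from 0.0135 to 0.105 for Dll1, from 0.0237 to 0.198 for Hes5 and from 0.0479 to 0.420 for Notch1. In limma on log2(FPKM + 1), filtered at 0.5 FPKM, the unadjusted p of Hes5 was 0.0323.

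The number of pathway genes at an unadjusted p under 0.05, 4 in the fit reported, was 1 for log2(FPKM + 1) with no filter. It ran from 1 to 7 with a library left out, at 1 without cKO replicate 2 or 3 and at 7 without control replicate 1. With a library left out, list medians ran from -0.24 to -0.068 for targets, -0.045 to -0.0058 for ligands, -0.069 to 0.048 for non-canonical ligands, -0.088 to 0.086 for receptors, 0.0038 to 0.076 for ligand endocytosis, -0.021 to 0.028 for receptor glycosylation, -0.029 to 0.031 for receptor cleavage, -0.065 to 0.051 for the nuclear complex, -0.045 to 0.072 for RBPJ corepressors and -0.0038 to 0.12 for negative regulators.

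Over all genes, 45 were called (10 higher, 35 lower). The count was 111 (50 and 61) with no filter, 113 (51 and 62) by DESeq2, 24 (4 and 20) on log2(FPKM + 1) and on log2(FPKM + 0.1), both filtered at 0.5 FPKM, and 17 (3 and 14) on log2(FPKM + 1) with no filter. It ran from 28 to 60 with a library left out, the higher ones from 4 to 19 and the lower ones from 24 to 44. Samples with the same replicate number did not deviate together (r from -0.062 to -0.001 over 3 pairs, 0 of 3 best with their own number). The replicate block gave 32 calls, 5 of them higher, and none among the members, with Dll1 at -0.33 and Hes5 at -1.05. At 54 to 209 counts per library and with this spread between mice, the interval of Hes5 holds both no change and a 4.33-fold lower level.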
